A study of Mus musculus with 3 samples.

Results

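The insulin and secretory granule genes are 10 mouse genes, Ins1, Ins2, Iapp, Pcsk1, Pcsk2, Cpe, Chga, Chgb, Scg2 and Slc30a8, chosen by name out of 21887 protein-coding genes. Their H3K27ac peaks were those lying over a member gene, or within 50 kb of it with no other protein-coding gene nearer. The rule gave 64 union regions of 52938 in all, where a union region is the stretch formed by peaks of any library that touch or overlap. The mark H3K27ac, an acetylated histone residue found at active promoters and enhancers, had been mapped by ChIP-seq, and the cells were MIN6, an insulinoma line of the mouse that keeps features of beta cells. The libraries came from an Arid1a homozygous knockout, an Arid1a heterozygous knockout and a wild-type clone. Per the labels, cells carrying lentiviral Cas9 received a lentiviral guide RNA against Arid1a under blasticidin and puromycin selection, and single-cell clones were sorted into the 3 genotypes by PCR and Western blotting. The labels give this treatment for all 3 samples. Each genotype had 1 library, so that every difference is one between single clones, with no replicate check and no p-value. In the wild-type list the peaks are named with a tag, GAL4, of a meaning not given in the sources used here.

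Beta cells make insulin as a precursor that is folded in the endoplasmic reticulum, sorted into dense-core granules and cut there to the mature hormone. Mice have a pair of insulin genes, the ancestral Ins2 and its retroposed copy Ins1. The prohormone convertases encoded by Pcsk1 and Pcsk2 cut proinsulin at paired basic residues, and carboxypeptidase E, from Cpe, trims the exposed basic residues. Chromogranin A, chromogranin B and secretogranin II, from Chga, Chgb and Scg2, are acidic cargo proteins of the granule, islet amyloid polypeptide from Iapp is co-released with insulin, and the transporter from Slc30a8 loads the granule with the zinc that insulin hexamers bind. The Arid1a product is a DNA-binding member of SWI/SNF, a complex that remodels chromatin.

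Promoter sequences were available from RefSeq (GRCm38.p6) for 7 of the 10 genes, and Ins2, Cpe and Slc30a8 had no entry. The 250 bases before the start site are shown for 5 of them, read 5′ to 3′ on the strand of the gene, because the start sites are where the peaks of these genes are compared below. For Ins1 (chr19:52264047-52264296, plus strand) and Iapp (chr6:142298175-142298424, plus strand) the capitals mark TAAT, the core of homeodomain sites, on either strand.
Ins1: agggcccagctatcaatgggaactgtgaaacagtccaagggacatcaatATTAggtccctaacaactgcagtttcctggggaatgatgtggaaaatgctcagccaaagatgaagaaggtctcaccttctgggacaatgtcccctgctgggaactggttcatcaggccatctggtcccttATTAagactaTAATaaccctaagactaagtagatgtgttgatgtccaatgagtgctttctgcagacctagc
Iapp: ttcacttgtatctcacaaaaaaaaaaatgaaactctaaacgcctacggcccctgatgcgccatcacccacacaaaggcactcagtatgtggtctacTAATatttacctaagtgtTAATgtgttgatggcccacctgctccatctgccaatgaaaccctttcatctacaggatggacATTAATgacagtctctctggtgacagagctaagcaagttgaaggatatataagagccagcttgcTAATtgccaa
For Pcsk1 (chr13:75089607-75089856, plus strand), Chgb (chr2:132781392-132781641, plus strand) and Scg2 (chr1:79440027-79440276, minus strand) the capitals mark TGACG, the core of the cAMP response element TGACGTCA, on either strand. The whole element holds TGACG on both strands.
Pcsk1: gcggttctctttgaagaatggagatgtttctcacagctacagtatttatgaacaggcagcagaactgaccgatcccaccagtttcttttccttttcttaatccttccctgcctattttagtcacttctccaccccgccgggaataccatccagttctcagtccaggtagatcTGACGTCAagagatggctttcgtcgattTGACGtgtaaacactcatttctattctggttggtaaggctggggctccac
Chgb: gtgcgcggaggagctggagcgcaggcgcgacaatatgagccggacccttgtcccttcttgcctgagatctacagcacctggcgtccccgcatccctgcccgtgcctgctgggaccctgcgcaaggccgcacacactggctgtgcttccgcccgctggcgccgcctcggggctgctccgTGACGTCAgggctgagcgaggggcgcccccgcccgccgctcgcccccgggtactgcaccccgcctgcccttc
Scg2: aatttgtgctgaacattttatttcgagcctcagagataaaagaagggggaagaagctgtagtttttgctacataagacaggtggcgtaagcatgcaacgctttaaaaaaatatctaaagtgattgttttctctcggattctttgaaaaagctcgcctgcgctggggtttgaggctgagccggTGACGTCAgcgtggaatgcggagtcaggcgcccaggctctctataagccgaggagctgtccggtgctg

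The promoters fell into unlike classes of base composition. Those of Ins1 and Iapp had 46.4% and 42.8% G and C with 0 and 3 CpG pairs in 250 bases, against medians of 55.6% and 10 CpG pairs over 21230 promoters. Those of Pcsk2, Chgb and Chga had 82.4%, 72.8% and 62.4%, and those of Scg2 and Pcsk1 48.0% and 46.8%. TAAT was found 3 times before Ins1 and 5 times before Iapp, once each before Pcsk1 and Chga, and in 49.3% of all promoters. TGACGTCA was found once each before Pcsk1, Chgb and Scg2, with its first base at -78, -72 and -68 from the start site, against 1.93% of all promoters. The core TGACG, which the whole element contains, was also found once before Chga and Pcsk2, and in 20.2% of all promoters. In the 250 bases searched, none of the 7 promoters held an exact match to the TATA box TATAAA, found in 11.6% of all promoters. None held the MAF site core TGCTGAC either, found in 3.54% of all promoters, nor the E-box CACGTG, found in 6.63%, nor the AP-1 site TGANTCA, found in 6.14%. The forkhead site TGTTTAC was found before Pcsk1 alone and in 2.61% of all promoters. The GC box CCGCCC was found before Pcsk2, Chga and Chgb and in 42.6%, and the general E-box CANNTG, which includes CACGTG, before all but Pcsk1 and in 62.8%. All motifs were searched on both strands. A match of letters is a description of the sequence and not a binding site. The lack of a match does not show that an element is absent, since variant forms and bases after these start sites were not searched.

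All 10 genes carried acetylated regions in all 3 libraries, so that none was without a called region in either knockout. The share of all protein-coding genes with this under the same rule is not given here. The count is therefore not read as a trait of these genes. The genes had 49 regions in the homozygous, 45 in the heterozygous and 49 in the wild-type library, built from 53 homozygous, 55 heterozygous and 51 wild-type peaks. Of the 64 regions 32 had a peak in all 3 libraries (50.0%, against 36.8% of all regions), and each gene held at least 1 of these. A further 4 were shared by both knockouts alone, 8 by the homozygous library and wild type, and 3 by the heterozygous library and wild type. Single-library regions numbered 5 in the homozygous, 6 in the heterozygous and 6 in the wild-type library, where the wild-type ones were 9.38% of the members' regions against 23.1% of all regions. Regions over a member gene and regions outside numbered 32 each.

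**Figure D1:**
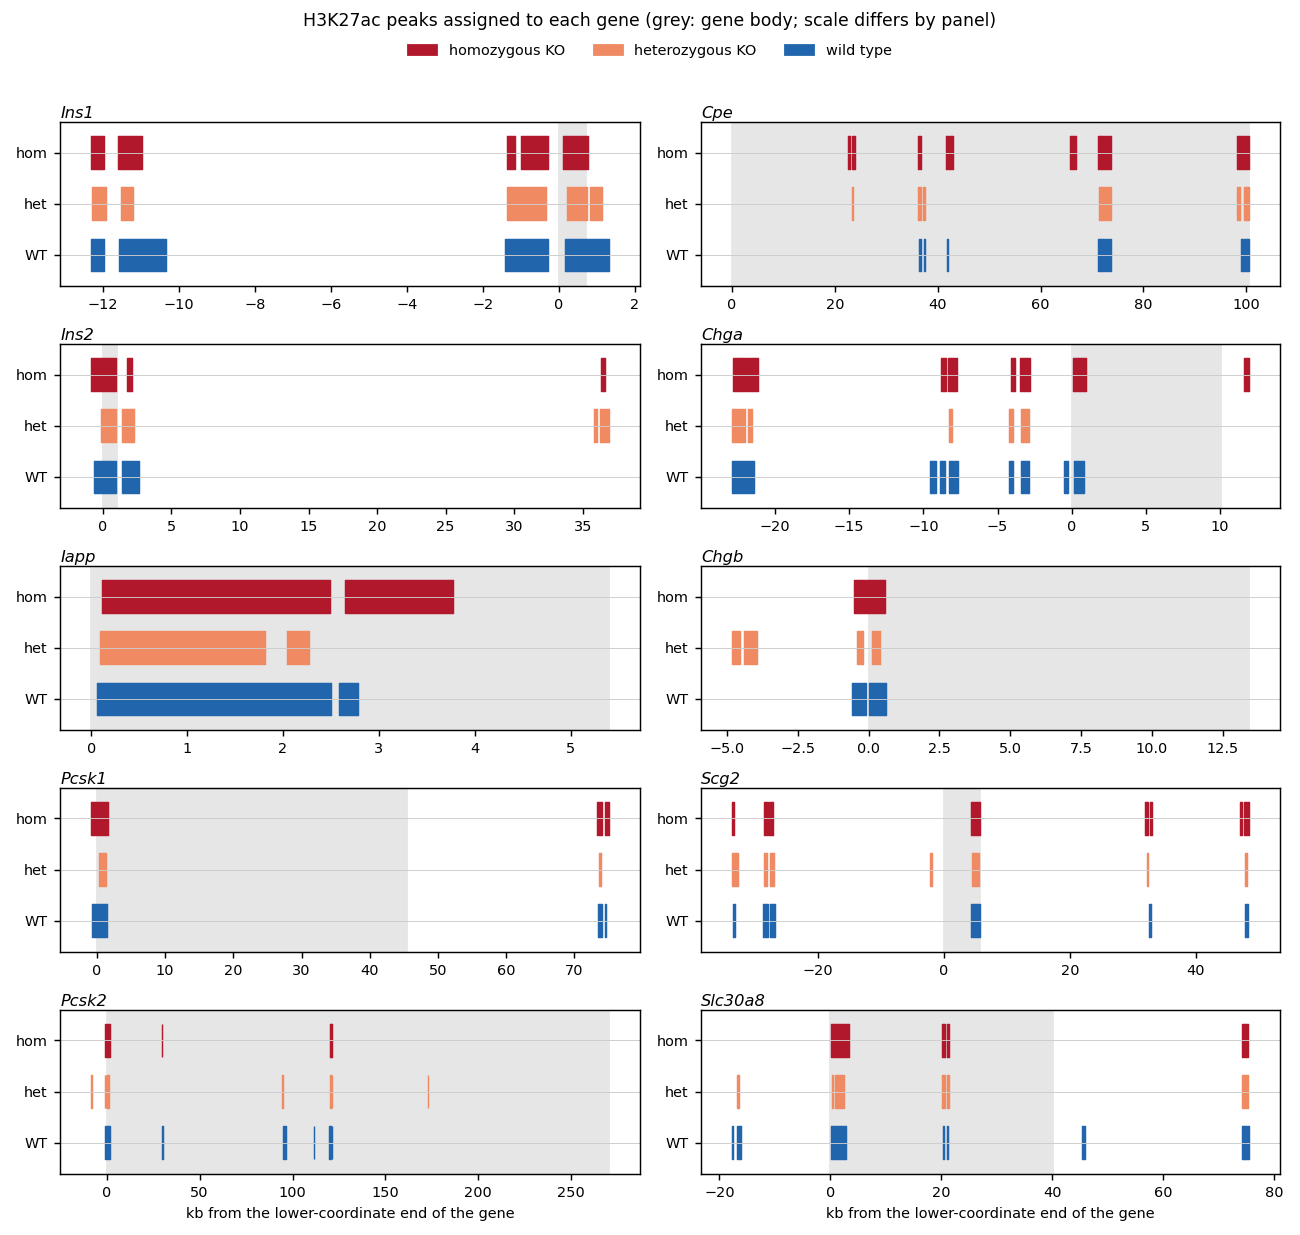
H3K27ac peaks of each gene by library, homozygous knockout above heterozygous knockout above wild type, along the distance in kb from the end of the gene with the lower coordinate (bars: peaks at their called width; grey: gene body; scale differs by panel). The start regions recur in the 3 libraries at most genes, Cpe has peaks in the homozygous track where the other tracks are empty, and the Chga start is empty in the heterozygous track.

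The length under peaks differed more than the number of regions. Peaks covered 40.02 kb in the homozygous, 27.9 kb in the heterozygous and 37.8 kb in the wild-type library, which made 1.06 times the wild-type length in the homozygous and 0.738 times in the heterozygous library. Over all peaks of the genome the homozygous ratio was 0.805 and the heterozygous one 0.697. Between the knockouts the members covered 1.43 times as much in the homozygous as in the heterozygous library, against 1.16 times for all peaks. By gene, 5 of the 10 had more covered length in the homozygous library than in wild type, 3 had more in the heterozygous library than in wild type, and 8 had more in the homozygous than in the heterozygous library. The total over the members leaned on Cpe, a gene singled out after its values were seen, which had 8.20 kb in the homozygous, 4.33 kb in the heterozygous and 4.51 kb in the wild-type library. Without Cpe the members covered 0.9554 times the wild-type length in the homozygous and 0.708 times in the heterozygous library.

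**Figure D2:**
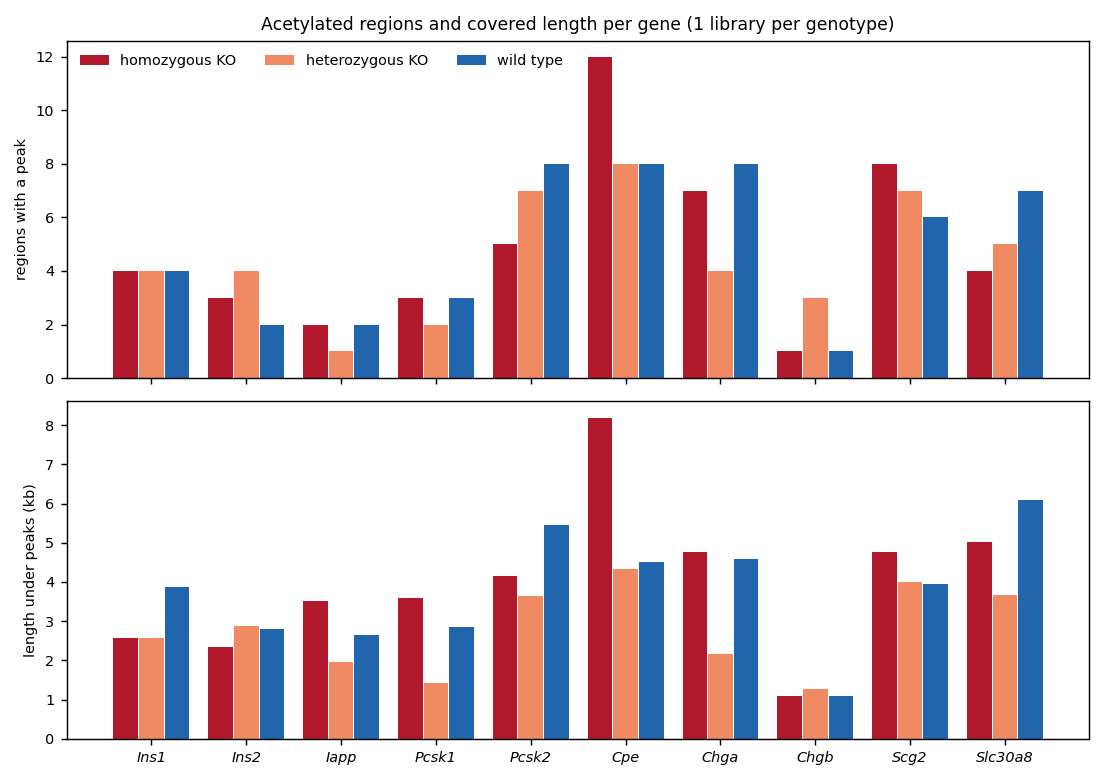
Number of regions with a peak (upper panel) and length under peaks in kb (lower panel) for each gene, with bars for the homozygous knockout, heterozygous knockout and wild-type libraries, 1 library each. Cpe has the tallest homozygous bars, with 12 regions and 8.20 kb, and Pcsk2, Chga and Slc30a8 have fewer regions in both knockouts than in wild type.

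The libraries themselves were unequal. The lists held 34298 homozygous peaks over 20.2 Mb, 31365 heterozygous peaks over 17.5 Mb and 41490 wild-type peaks over 25.1 Mb. Depth per library is unknown. The lowest background recovered from a list was 1.73 reads in the homozygous, 1.73 in the heterozygous and 2.17 in the wild-type library, so that wild type and depth cannot be told apart in counts against it, while the knockouts were alike by this measure. Of 8 beta cell markers, 4 of them members of the set (Ins1, Ins2, Iapp and Slc30a8), all 8 had a peak over or within 1 kb of the gene in the homozygous library, 7 in the heterozygous and all 8 in wild type, and Pdx1, a beta cell transcription factor gene, was the one without a heterozygous peak. Of 11 markers of alpha, delta, PP, epsilon, duct and acinar cells, 1 had a peak in each library, which was the glucagon gene Gcg in both knockouts and Irx1 in wild type. The other 9, among them Sst, Ppy, Ghrl, Krt19 and Cpa1, had 0 in all 3 libraries. The share of all protein-coding genes with a peak over or within 1 kb is not given here. By start sites alone, of 21228 in the genome a peak lay within 1 kb of 10615 in homozygous, 10627 in heterozygous and 11253 in wild-type cells. The marker counts are therefore not read as a measure of cell identity.

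Gains and losses at the 10 genes were equal in number between the homozygous library and wild type. A gained region held a peak of the knockout, or of the first-named library, without one of the other, and a lost region the reverse. Of the 49 homozygous regions 9 were gained (18.4%, Wilson 95% interval 9.98 to 31.4%), against 25.9% of all homozygous regions. Of the 49 wild-type regions 9 were lost (18.4%, same interval), against 39.4% of all wild-type regions. Regions of 1 gene are not independent, and the intervals cover counting error only. The gains lay at Cpe (5), Scg2 (2), Ins2 (1) and Chga (1), and the losses at Pcsk2 (3), Slc30a8 (3), Chga (2) and Cpe (1), so that Cpe was the gene with the largest net count, +4, and Pcsk2 and Slc30a8 had -3 each. With lists shortened to equal length, 13 of 44 were gained (over all homozygous regions 29.5% were) and 6 of 37 lost (over all wild-type regions 30.3%), so that the balance of gains and losses depended on list length.

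A stricter class, called strong here, was limited to peaks whose −log10 q reached their own list's median and which had no peak of the other library within 1 kb. The homozygous library had 3 strong gains, all at Cpe (6.12% of 49, against 2.50% of all regions), and 2 strong losses, 1 at Pcsk2 and 1 at Slc30a8 (4.08% of 49, against 6.54%). Thus 6 of the 9 gains and 7 of the 9 losses did not reach this class. Over all regions 817 of 8468 gains and 2607 of 15722 losses were strong, so that most did not reach it there either. Most one-sided regions of the members had weak peaks or lay close to a peak of the other library.

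In the heterozygous library against wild type, 10 of 45 regions were gained (22.2%, interval 12.5 to 36.3%), against 21.4% of all heterozygous regions, and 14 of 49 were lost (28.6%, 17.9 to 42.4%), against 42.4% of all wild-type regions. None of the 10 gains was strong, against 2.64% of all heterozygous regions, and none of the 14 losses was, against 6.77% of all wild-type regions. The losses were led by Chga with 4 and no gain, and Pcsk2 had 3 with 2 gains. The gains were 2 each at Ins2, Chgb, Cpe, Scg2 and Pcsk2. With lists of equal length 13 of 45 were gained (over all heterozygous regions 28.1% were) and 5 of 37 lost (over all wild-type regions 30.5%). With wild type brought to the knockout background and a common floor on −log10 p in all lists, 7 of 37 were gained (over all 23.0%) and 7 of 37 lost (over all 34.5%). Losses did not outnumber gains in these settings, nor with absence meaning no peak within 1 kb, at 8 gained and 7 lost, and they did in the other 5 settings.

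Between the knockouts, which had like lowest backgrounds, 13 of 49 homozygous regions were gained relative to the heterozygous library (26.5%, interval 16.2 to 40.3%), against 35.1% of all homozygous regions. Lost were 9 of 45 (20%, 10.9 to 33.8%), against 27.6% of all heterozygous regions. Strong gains numbered 4, of which 3 were at Cpe and 1 just after the Chga start (8.16% of 49, against 4.61%), and there was no strong loss, against 4.38%. Cpe gained 5 and lost 1 and Chga gained 3 and lost none, while Chgb lost 2, Pcsk2 lost 3 and gained 1, and Ins2 lost 1. With lists of equal length 11 of 44 were gained (over all homozygous regions 31.4% were) and 12 of 45 lost (over all heterozygous regions 29.8%). The net count of Cpe was above 0 in all 8 alternative settings in this comparison and in that against wild type. The net counts of +1 at Ins2 and -1 at Chga in the homozygous library against wild type, and of +1 at Scg2 between the knockouts, each turned sign in at least 1 setting.

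Ins1, on chromosome 19 at 52264297 to 52265015, had the same 4 regions in every library. A pair lay about the gene itself, at 52262866 to 52264011 before it and at 52264396 to 52265603 over it, and a pair lay between 10.3 and 11.9 kb away, at 52251993 to 52252390 and 52252699 to 52253970. Of the 4 regions 3 were narrower in both knockouts than in wild type, and the total came to 2.57 kb under peaks in the homozygous, 2.56 kb in the heterozygous and 3.88 kb in the wild-type library. The region over the gene had 674 bp in the homozygous, 841 bp in the heterozygous and 1158 bp in the wild-type library. The distal region at 52252699 had 628 in homozygous, 316 in heterozygous and 1243 bp in wild-type cells, and that at 52251993 had 345 in homozygous, 372 in heterozygous and 332 bp in wild-type cells. The local background under the Ins1 peaks was 2.06 times the list median in the homozygous, 2.79 times in the heterozygous and 5.33 times in the wild-type library, and its part in the widths was not tested. Both insulin genes are close in sequence, and the treatment of reads that map to more than 1 place is one of the steps not given in the sources used here.

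Ins2, on chromosome 7 at 142678656 to 142679726, had 3 regions in the homozygous, 4 in the heterozygous and 2 in the wild-type library. The region over the gene, at 142677825 to 142679610, was wide in all of them, with 1774 in homozygous, 1082 in heterozygous and 1588 bp in wild-type cells. The region beside it, at 142680073 to 142681287, had 306 bp in the homozygous library, against 882 bp in the heterozygous and 1208 bp in wild type, the largest narrowing of any shared region of the 10 genes between the homozygous library and wild type. Distal regions 34.7 and 35.1 kb from the gene appeared in the knockouts alone. The first, at 142714462 to 142714711, had a heterozygous peak of 250 bp, and the second, at 142714870 to 142715532, had 274 bp in the homozygous and 663 bp in the heterozygous library. Their −log10 q was 6.84 in the homozygous and 11.2 and 15.6 in the heterozygous list, below the medians of 22.6 in the homozygous and 18.5 in the heterozygous list, so that they were not strong.

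Iapp, on chromosome 6 at 142298425 to 142303820, lies within the interval that the RefSeq table gives for Slco1a5, and both of its regions overlap that gene as well. The region after its start, at 142298487 to 142300927, was among the widest of the set, with 2375 bp in the homozygous, 1956 bp in the heterozygous and 2441 bp in the wild-type library. The next, at 142301004 to 142302201, had 1136 bp in the homozygous library, no peak in the heterozygous one and 200 bp in wild type, so that acetylation calls reached farther into Iapp in the homozygous library. Before the start, where the region counts for Slco1a5, a short peak lay 427 bp away in the heterozygous library and 410 bp away in wild type, and the nearest homozygous peak was 7502 bp away.

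Pcsk1, on chromosome 13 at 75089420 to 75134861, had 3 regions in the homozygous, 2 in the heterozygous and 3 in the wild-type library. Its start region, at 75088589 to 75091044, had 2303 bp under peaks in the homozygous, 1126 bp in the heterozygous and 2065 bp in wild type. A pair of regions lay 27.8 and 29.0 kb beyond the other end of the gene. The first had 729 in homozygous, 305 in heterozygous and 534 bp in wild-type cells. The second, at 75163872 to 75164431, had 560 bp in the homozygous and 240 bp in the wild-type library and no heterozygous peak. At all 3 regions the summed length under peaks was largest in the homozygous and smallest or 0 in the heterozygous library, although the start region was split into 2 homozygous peaks and was 1 wild-type peak. The covered length of the gene came to 3.59 in homozygous, 1.43 in heterozygous and 2.84 kb in wild-type cells.

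Pcsk2, on chromosome 2 at 143546133 to 143816284, is the longest of the 10 genes, at 270152 bp, and it had 5 regions in the homozygous, 7 in the heterozygous and 8 in the wild-type library. The pair about the start, at 143544970 to 143545917 and 143546207 to 143547991, and a pair 119.8 and 120.9 kb beyond its start, at 143665935 to 143666852 and 143667070 to 143667540, were present in all libraries. Between them wild type had 4 more regions. The region at 143640697 to 143641555 had no homozygous peak within 1 kb, a heterozygous peak of 202 bp, and a wild-type peak of 741 bp with a fold enrichment of 4.81 within its list. The regions at 143641952 and 143657494 were called in wild type alone, and that at 143575663 in the homozygous library and wild type. The heterozygous library had peaks of its own at 143537799 and 143718891, both of low rank, with −log10 q of 6.36 and 4.87.

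Cpe, on chromosome 8 at 64592542 to 64693109, had 12 regions in the homozygous, 8 in the heterozygous and 8 in the wild-type library, all of them over the gene. A cluster of 3 regions between 64663668 and 64666306 was of similar width in all libraries, with 1224 in homozygous, 1033 in heterozygous and 1139 bp in wild-type cells at its first region. By −log10 q within its own list that region stood at percentile 83.0 in the homozygous, 88.1 in the heterozygous and 87.2 in the wild-type list. The homozygous library had further peaks in the stretch away from that cluster. That at 64658245 to 64659465 was 1221 bp wide with a fold enrichment of 3.69 and a −log10 q of 36.9, and neither other library had a peak within 1 kb. Those at 64615018 to 64615475 and 64615813 to 64616394 had 458 and 582 bp in the homozygous library, the heterozygous library had 222 bp at the second, and wild type had none at either. This pair lies close together, so that the 3 strong gains of Cpe against wild type are at 2 places. A peak of 808 bp at 64634758 to 64635565 was likewise homozygous alone, beside one at 64634182 that wild type shared with 212 bp. Against the heterozygous library the 3 strong gains of Cpe were those at 64634182, 64634758 and 64658245. Only the last of them was strong in both comparisons. The one region of Cpe lost in the homozygous library, at 64629734 to 64630017, held peaks of 284 bp in the heterozygous and 216 bp in the wild-type library. The remaining gain against wild type, at 64690684 to 64691406, had 723 bp in the homozygous and 457 bp in the heterozygous library. It ended just before a wild-type peak that began at 64691415. Near the higher-coordinate end of the gene, the region at 64692031 to 64693002 had 970 in homozygous, 661 in heterozygous and 971 bp in wild-type cells. The local background recovered under the Cpe peaks, the level that a peak's height is compared with, was also higher in the homozygous library. Its median was 5.81 times the list median there, against 2.73 times in the heterozygous and 3.04 times in the wild-type library. Whether this level includes acetylated reads of the surroundings is unknown, as the reads behind it are not named in the labels. The part of the local background in the Cpe gains was not tested.

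Among the granin genes the pattern was not shared. Chga, on chromosome 12 at 102554941 to 102565027, had 7 regions in the homozygous, 4 in the heterozygous and 8 in the wild-type library, most of them before the gene. The region just after its start, 67 bp inside the gene at 102555008 to 102555929, had a peak of 922 bp in the homozygous and of 646 bp in the wild-type library. The heterozygous library had no peak there, and its nearest lay 2905 bp before the start site and 63143 bp after it. The wild-type peak was a weak one, with a fold enrichment of 1.93 and a −log10 q of 10.5, so that the loss was not strong. The distal region 21.1 kb before the gene, at 102532039 to 102533794, had 1624 in homozygous, 1186 in heterozygous and 1473 bp in wild-type cells. The region at 102551477 to 102552097 had 621 in homozygous, 494 in heterozygous and 519 bp in wild-type cells. Before the gene 4 of 7 regions were in all libraries, those at 102545410 and 102554438 were in wild type alone, and that at 102546044 had no heterozygous peak. The local background under the Chga peaks was 4.74 times the list median in the homozygous, 3.31 times in the heterozygous and 10.2 times in the wild-type library, and its part in these differences was not tested.

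Chgb, on chromosome 2 at 132781642 to 132795079, had 1 region in the homozygous, 3 in the heterozygous and 1 in the wild-type library. The start region, at 132781043 to 132782247, was a single homozygous peak of 1092 bp, a pair of heterozygous peaks of 206 and 305 bp, and a pair of wild-type peaks of 517 and 584 bp. The homozygous fold enrichment of 6.87 was above its list's median of 6.31, whereas the highest heterozygous one there was 2.89, below a median of 5.81, and the highest wild-type one 4.28, below a median of 5.67. Heterozygous peaks of 299 and 468 bp lay 4.53 and 3.92 kb before the gene, where the other libraries had none.

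Scg2, on chromosome 1 at 79434366 to 79440026, had 8 regions in the homozygous, 7 in the heterozygous and 6 in the wild-type library. Its start region, at 79438660 to 79440071, had 1371 in homozygous, 1132 in heterozygous and 1408 bp in wild-type cells. The remaining regions were nearly all more than 26 kb from the gene, in a group on either side, with those at 79405692 and 79406632 in all libraries. At the farthest one, 42.0 kb away at 79482039 to 79482867, the homozygous peak had 829 bp, against 251 bp in the heterozygous and 519 bp in the wild-type library. By −log10 q within its own list it stood at percentile 80.1 in the homozygous, 23.0 in the heterozygous and 49.9 in the wild-type list. The region at 79466365 was present in both knockouts with 369 bp in the homozygous and 219 bp in the heterozygous library, and that at 79481334 in the homozygous library alone with 340 bp. At 79400709 the heterozygous peak was the wide one, with 904 bp, against 266 bp in the homozygous and 260 bp in the wild-type library.

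Slc30a8, on chromosome 15 at 52295553 to 52335798, had 4 regions in the homozygous, 5 in the heterozygous and 7 in the wild-type library. All regions over the gene were kept, and those that differed lay outside it. The region at 52278689 to 52279510, 16.0 kb from the gene, had no homozygous peak within 1 kb, a heterozygous peak of 429 bp with a −log10 q of 5.97, and a wild-type peak of 817 bp with a fold enrichment of 7.07 and a −log10 q of 34.5. Wild type alone had weak peaks at 52277803 and 52341001, and the net count of the homozygous library against wild type lay between -8 and 0 over the alternative settings. The region 137 bp inside the lower-coordinate end of the gene, at 52295690 to 52298889, had 3061 bp in the homozygous, 1516 bp in the heterozygous and 2772 bp in the wild-type library, called as 2 homozygous, 4 heterozygous and 1 wild-type peak. Inside the gene the regions at 52315679 and 52316568 had 531 and 382 bp in the homozygous and 492 and 396 bp in the heterozygous library, against 255 and 303 bp in wild type.

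The widths of shared regions followed the same order as the covered length, which is summed in large part from them and is not a separate observation. Of 40 regions with a peak in the homozygous library and wild type, 19 were narrower in the homozygous library (47.5%, against 59.4% of all such regions), with a median width ratio of 1.01 against 0.954. Of 35 shared by the heterozygous library and wild type, 28 were narrower in the heterozygous one (80.0%, against 72.0%), with a median ratio of 0.783 against 0.881. Of 36 shared by the knockouts, 9 were narrower in the homozygous library (25%, against 37.2%), with a median ratio of 1.25 against 1.07. Regions at least 2 times as wide in the homozygous as in the heterozygous library numbered 7, or 19.4%, against 5.88% of all shared regions, and those at most 0.5 times as wide numbered 3, or 8.33%, against 2.81%. A peak's width depends on its height over the background and on depth, and what part these had in the ratios was not tested.

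**Figure D3:**
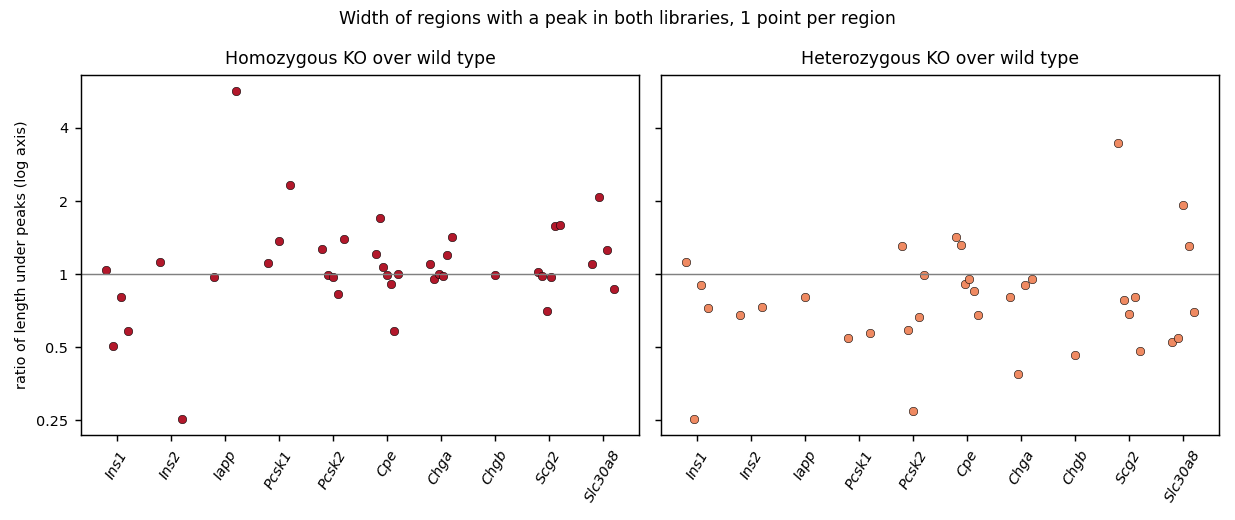
Ratio of the length under peaks in each region with a peak in both libraries, for the homozygous knockout over wild type (left) and the heterozygous knockout over wild type (right), on a log axis, with 1 point per region grouped by gene. The homozygous points lie on both sides of 1, with a median of 1.01, and 28 of the 35 heterozygous points lie below 1.

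At the annotated start sites of the 7 genes with a promoter entry, the peaks tended to lie beside the site rather than over it. Whether transcription begins at these sites in MIN6 cells was not tested. The start site was under a peak for 2 of 7 genes in the homozygous, 1 of 6 in the heterozygous and 2 of 7 in the wild-type library, counting genes with a peak within 1 kb of the start. Over all such start sites of the genome it was under one for 55.9% in homozygous, 52.6% in heterozygous and 56.6% in wild-type cells. At Ins1 the start lay in a gap in every library, of 390 bp in the homozygous, 549 bp in the heterozygous and 434 bp in wild type. At Pcsk2 it lay in a gap of 322 in homozygous, 311 in heterozygous and 381 bp in wild-type cells. Peaks covered none of the 250 bases before Ins1 and Iapp, printed above, in any library, and before Pcsk2 they covered 35 in homozygous, 24 in heterozygous and 0 in wild-type cells. Members flanked by a peak on both sides within 1 kb of an uncovered start numbered 3 in homozygous, 4 in heterozygous and 5 in wild-type cells, against 23.4% of all homozygous, 23.8% of all heterozygous and 24.3% of all wild-type start sites with a near peak.

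Other genes differed between the libraries in this respect. At Pcsk1 the homozygous library had a gap of 153 bp about the start, from 149 bp before it, where the heterozygous and wild-type libraries each had a single peak over it. This start site, at 75089857, lies inside the interval of the gene, which begins at 75089420. The order was another at that end of the gene. It was under a peak in the homozygous and wild-type libraries, and the nearest heterozygous peak began 230 bp inside the gene. At Chgb the homozygous peak ran over the start, the heterozygous library had a gap of 308 bp and wild type one of 104 bp. The Scg2 start lay at the edge of its peak, which began 4 bp before the start in the homozygous library, 9 bp after it in the heterozygous and 45 bp before it in wild type. The element TGACGTCA was under a peak before Chgb in the homozygous library alone, before Pcsk1 in the heterozygous library and wild type but not in the homozygous library, and before Scg2 in none. The 8 TAAT matches before Ins1 and Iapp were under no peak in any library. For the genes without a promoter entry only the ends of the gene are known here, and the higher-coordinate end of Ins2 lay in a gap of 856 bp in the homozygous, 463 bp in the heterozygous and 469 bp in the wild-type library.

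**Figure D4:**
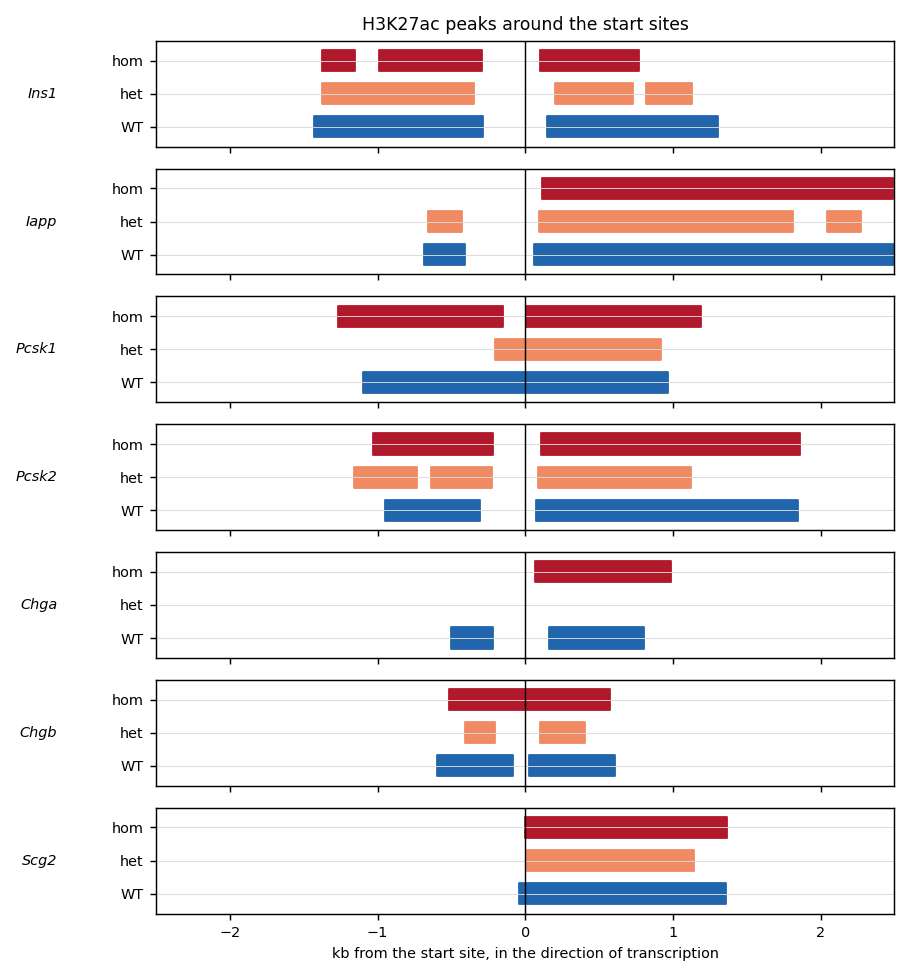
Peaks within 2.5 kb of the start site of the 7 genes with a promoter entry, by distance in kb along the direction of transcription (vertical line: start site; tracks from above: homozygous knockout, heterozygous knockout, wild type). Gaps about the start recur in all tracks at Ins1 and Pcsk2, and the heterozygous track of Chga is empty.

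Within each library's own list the peaks of these genes had many reads but a low fold enrichment. The authors' fold is a ratio within 1 library and was used to rank peaks within that list and not to compare libraries. The median fold of the members was 3.85 in the homozygous list (list median 6.31), 3.80 in the heterozygous list (5.81) and 3.68 in the wild-type list (5.67). Below the median of their list were 47 of 53 homozygous, 53 of 55 heterozygous and 44 of 51 wild-type peaks. A summit pile-up and a local background were solved for each peak from its fold and −log10 p. The median summit pile-up of the members was 100 reads in the homozygous list (54 over the list), 61 in the heterozygous list (47) and 105 in the wild-type list (49). Their median local background was 22.4 reads in the homozygous list (7.12 over the list), 17.8 in the heterozygous list (6.72) and 21.9 in the wild-type list (7.26). The median percentile of that background was 90.2 in homozygous, 89.6 in heterozygous and 90.2 in wild-type cells.

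Peaks near other genes stood differently. All peaks within 1 kb of a start site had a median fold of 7.94 in the homozygous, 7.33 in the heterozygous and 7.33 in the wild-type list, above the list medians, and a median background of 9.42 in homozygous, 7.16 in heterozygous and 9.62 reads in wild-type cells. All peaks inside a protein-coding gene had a median fold of 6.61 in the homozygous, 6.22 in the heterozygous and 5.84 in the wild-type list. Their median background was 7.64 reads in the homozygous, 6.96 in the heterozygous and 7.94 in the wild-type list. The background of the members was higher near the genes than far from them. For peaks over a member gene its median was 37.1 reads in the homozygous, 18.9 in the heterozygous and 22.3 in the wild-type library, and for peaks 10 to 50 kb away it was 10.8 in homozygous, 7.58 in heterozygous and 13.1 reads in wild-type cells. By gene the background was highest at Iapp in the homozygous library, at 11.8 times the list median, and at Chga in wild type, at 10.2 times. At Ins2 it was 4.60 times the list median in the homozygous, 2.84 times in the heterozygous and 9.70 times in the wild-type library. It was lowest at Slc30a8 and Scg2 in the homozygous library, at 1.15 times each, at Pcsk1 in the heterozygous library, at 1.26 times, and at Scg2 in wild type, at 1.20 times. The reads behind the local background, of a control library or of the same library, are not named in the labels. A high local background raises the height that a peak needs to be called, and its part in the gains and losses was not tested.

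**Figure D5:**
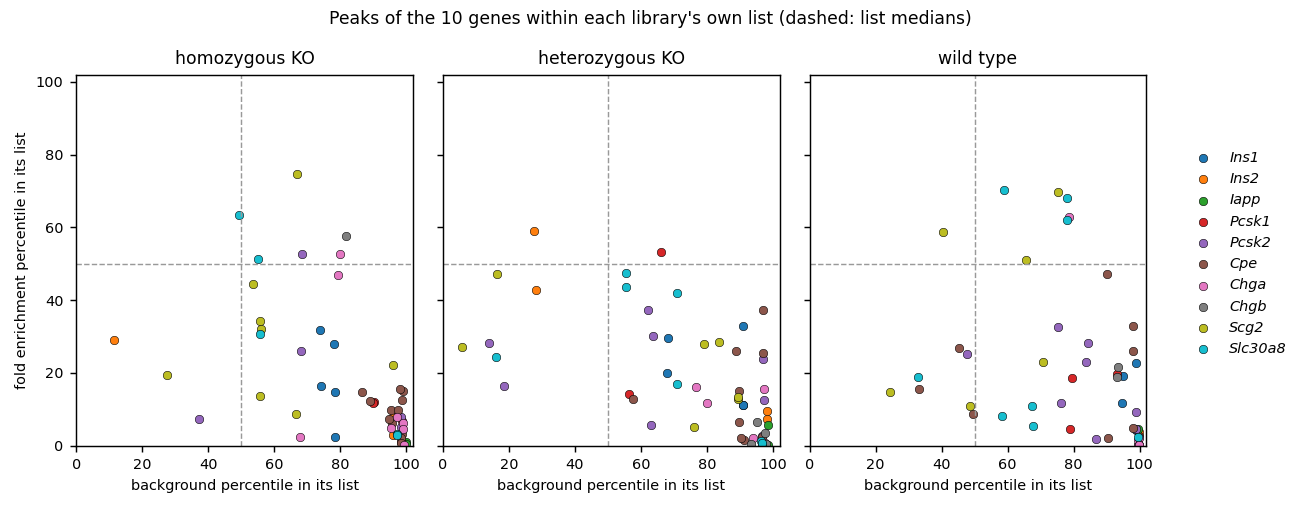
Percentile of the fold enrichment (vertical) against the percentile of the recovered local background (horizontal) of each peak of the 10 genes within its own list, for the homozygous knockout, heterozygous knockout and wild type from left to right (colours: genes; dashed lines: list medians). Most points lie at the lower right, with 47 of 53 homozygous, 53 of 55 heterozygous and 44 of 51 wild-type peaks below the median fold of their list.

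A list of 21 other genes of the granule and its assembly gave a further view. They had 87 regions in the homozygous, 84 in the heterozygous and 99 in the wild-type library, of 130 in all. In the homozygous library against wild type 23 were gained (26.4%, against 25.9% of all regions) and 35 lost (35.4%, against 39.4%), and 5 genes had more regions, 11 fewer and 5 as many. In the heterozygous library 19 were gained (22.6%, against 21.4%) and 34 lost (34.3%, against 42.4%), and 4 genes had more, 9 fewer and 8 as many. Between the knockouts 23 were gained (26.4%, against 35.1%) and 20 lost (23.8%, against 27.6%). All 6 shares lay within 10 percentage points of those of all regions. Eipr1, whose product acts in dense-core vesicle formation, had 10 regions in the homozygous, 7 in the heterozygous and 5 in the wild-type library. Fewer regions in the knockouts were found at Ptprn2, which encodes a granule membrane protein, with 7 in homozygous, 5 in heterozygous and 10 in wild-type cells. Cltrn had 1 in homozygous, 4 in heterozygous and 5 in wild-type cells, and the carboxypeptidase gene Cpd had 1 in homozygous, 1 in heterozygous and 4 in wild-type cells. Ero1b, which encodes an oxidase of the endoplasmic reticulum, had 6 in homozygous, 4 in heterozygous and 8 in wild-type cells, and Ica1 had 7 in homozygous, 6 in heterozygous and 9 in wild-type cells.

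The window of 50 kb took in unequal numbers of regions. All regions in the window were assigned to the gene for Ins1, Pcsk1, Pcsk2, Scg2 and Slc30a8, while 8 of 10 about Iapp, 6 of 10 about Ins2 and 4 each about Cpe, Chga and Chgb were nearer to another gene. The farthest regions inside were those of Scg2 at 42013 bp, in all libraries, and at 41308 bp, in the homozygous library alone. The nearest beyond it lay 55571 bp from Pcsk1, in the homozygous library alone, and 58701 bp from Slc30a8, in wild type alone. Nearness does not show that a region acts on a gene. All coordinates are on mm10.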

How the data were processed

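H3K27ac ChIP-seq of 3 MIN6 clones was used, with 1 library per genotype. Per the submitters' processing notes, reads were demultiplexed with bcl2fastq and peaks called with MACS2 on mm10. The aligner, control sample, peak threshold and tool versions are details not given in the sources used here. The authors deposited 1 peak list per library, with the position, a score (10 times −log10 q), the summit, −log10 p and −log10 q, and the fold enrichment, a ratio of the summit pile-up to the background around it. The deposited values other than positions rank peaks within a list.

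Peaks of the 3 lists on chromosomes 1 to 19, X and Y that touched or overlapped were merged, and a region was present in a library with at least 1 bp of its peaks. Regions were assigned to protein-coding genes of RefSeq GRCm38.p6, the assembly of mm10, by the distance between intervals. No region had to pass a filter on low values. All 10 members matched. Pile-ups and backgrounds were solved from fold and −log10 p by a Poisson tail probability, and a tolerance of 0.001 on −log10 p was met by all 34298 homozygous, 31364 of 31365 heterozygous and all 41490 wild-type peaks. Intervals are Wilson 95%. With 1 library a genotype there was no test. Named were all 10 members, and of the 21 other granule genes the 6 with a net count of 3 or more in either direction between a knockout and wild type, a limit chosen after the values were seen. The members and lists were chosen with earlier results of these data known. Python 3.11.15, numpy 2.4.6, pandas 2.3.3, scipy 1.17.1 and matplotlib 3.10.9 were used, and the steps were tested on simulated data. The 8 alternatives are given in the closing section.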

Additional observations from a re-analysis of the deposited data

How the results depend on the processing

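With 8 alternative settings, 88 of 96 recomputed counts and lengths over the 10 genes stayed within 1.5 times the reported value. The 8 that moved were all counts of gains or losses. Some of the 96 could not move, since the setting on absence alters gains and losses alone and leaves region counts and lengths as they were. With lists of equal length (31365 peaks each by −log10 q), 5 of 37 regions were lost in the heterozygous library against wild type, against 14 of 49 as reported, and 30.5% of all wild-type regions were. With wild type scaled to the knockout background (0.798 times) and a floor of 10 on −log10 p in all lists, 7 of 37 were lost (over all regions 34.5%). With absence meaning no peak within 1 kb, 5 of 49 were gained in the homozygous library against wild type (over all regions 20.5%), 7 of 49 lost in the heterozygous library against wild type (35.8%) and 6 of 49 gained in the homozygous against the heterozygous library (28.8%). Where peaks had to cover 50% of a region, 20 of 45 were gained in the homozygous against the heterozygous library (41.6%). A window of 100 kb gave 14 of 55 gained (25.9%) and 17 of 58 lost (39.4%) in the homozygous library against wild type. A threshold of 5 on −log10 q and assignment by the summit moved none of these counts beyond 1.5 times, nor did a window of 20 kb.

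Of 240 net counts of single genes 145 stayed as reported and 90 moved without turning sign. The remaining 5 turned sign. They were Slc30a8 in the heterozygous library against wild type at 1 (equal length), Ins2 at -1 (50% covered) and Chga at 1 (absence within 1 kb) in the homozygous library against wild type, and Scg2 at -1 in the homozygous against the heterozygous library (absence within 1 kb, and 20 kb). The cause was not tested. Cpe ranged from 3 to 7 in the homozygous library against wild type, and Pcsk2 from -5 to -3. No paired analysis was possible because each genotype had 1 library. Depth and wild type cannot be told apart.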
